A study of Mus musculus with 18 samples.

Results

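The genes of oxidative phosphorylation were examined in mouse hippocampus RNA. The 108 members were the genes whose symbol starts with a family prefix of the 5 complexes (Ndufa, Ndufb, Ndufc, Ndufs, Ndufv, Sdh, Uqcr, Cox4i, Cox5, Cox6, Cox7, Cox8, Atp5, mt-Nd, mt-Co, mt-Cyt or mt-Atp) and whose count was above 0 in all 18 libraries. They were 108 of the 22063 gene identifiers in the table and of the 112 identifiers that carry such a prefix. The 4 left out by the count rule were Cox8b, with a count in 16 libraries, Cox7b2, with a count in 11, and Cox8c and a second Atp5o identifier, both with a count in 0. Of the members, 95 lie in the nuclear genome and 13 in mitochondrial DNA, where their symbols begin with mt-. The nuclear members comprised 80 subunits (36 of complex I, 4 of complex II, 8 of complex III, 16 of complex IV and 16 of complex V), 14 assembly or regulatory factors and Ndufb1-ps, whose symbol marks it as a pseudogene. The mt- members comprised 7 subunits of complex I, 1 of complex III, 3 of complex IV and 2 of complex V. All 108 passed the filter on low counts and were tested among 14763 genes.

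The series addressed vestibular spatial disorientation, in which the sense of balance gives a false account of motion. Its 4 groups were a Control group called a blank control (n = 3), an S-V group turned one way only while vision was blocked (n = 5), a D+V group turned both ways while vision was free (n = 5), and a D-V group turned both ways while vision was blocked, which the labels call the Coriolis illusion (n = 5). Hippocampus was taken immediately after the rotation, and polyadenylated RNA was sequenced. The labels name no strain, sex, age or duration of rotation, and they do not say whether the libraries of a group came from separate animals, so the p-values measure the spread between these libraries, which may be technical. Whether the Control mice were handled or restrained like the rotated ones is not stated either.

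Oxidative phosphorylation is the chain of protein complexes in the inner mitochondrial membrane that makes most of a neuron's ATP. Complexes I and II take electrons from NADH and succinate, and complexes III and IV pass them on to oxygen. Complexes I, III and IV pump protons, and complex V, the ATP synthase, uses the returning protons to make ATP. Complex II is built from nuclear genes alone, and each of the other complexes needs subunits from both genomes, which are transcribed by different polymerases in different compartments. In hippocampal neurons the pathway pays for ion pumping after synaptic activity.

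Each library held between 15.03 M and 25.31 M estimated counts, where M stands for 1000000. Markers of hippocampal neurons were present in all 18 libraries, among them Prox1 of the dentate gyrus at 79.1 to 153 CPM (counts scaled to a library total of 1000000) and Neurod6 of the pyramidal layers at 163 to 291 CPM. In 6 libraries (S-V replicates 2 and 4, D+V replicates 2 and 5, D-V replicates 3 and 4) markers of the choroid plexus, the epithelium that lies beside the hippocampus, summed to 216 to 936 CPM without Ttr, against 109 to 145 CPM in the 3 Control libraries. The listed markers of thalamus and habenula, which lie under the hippocampus, summed to 94.0 to 134 CPM in Control and 62.5 to 112 CPM in the rotated groups. The 5 markers of red blood cells summed to 479 to 639 CPM in Control and 385 to 3204 CPM in the rotated groups. In D+V against Control the 6 markers of endothelium and pericytes had a median log2 fold change of -0.292, and their lowest edgeR adjusted p was 0.0153. The 5 astrocyte markers had a median of 0.178 there, with a lowest edgeR adjusted p of 0.0411. In a fit with the choroid plexus marker level as a covariate, edgeR called 0 of 108 members in each comparison. Of 14763 tested genes it called 253 in D+V against Control, 36 in the rotated mean against Control and 23 in D-V against D+V. Apart from such fits, the part of these tissues and cells in the results below was not tested. In bulk RNA, fewer cells of a type and less RNA per cell cannot be told apart.

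The promoter windows below are shown because nuclear members were measured to vary together over these libraries, and the mitochondrial sequence because its shared end bears on how its reads can be counted. The windows are RefSeq's for build GRCm38.p6, each from 250 bases before to 50 bases after the annotated start, on the strand of the gene and 5′ to 3′. A window was found for 79 of the 95 nuclear members (76 by symbol, the others by Ensembl identifier or a listed synonym) and for 65 of the 80 nuclear subunits. Capitals mark matches, on either strand, to the motif of NRF1 (GCGCA, any base, then GCGC) or to that of GABP and other ETS factors (CCGGAAG), both known as regulators of respiratory chain genes. Cox6a1 (chr5:115348909-115349208, minus strand), a small nuclear subunit of complex IV, held both motifs, and Ndufb4 (chr16:37654319-37654618, minus strand), an accessory subunit of complex I, held NRF1 matches alone. Both were picked because no subunit window held more matches to these motifs and the YY1 motif given below, so they are not typical members. Sdha held as many. The part of these motifs in how members varied together was not tested.
Cox6a1: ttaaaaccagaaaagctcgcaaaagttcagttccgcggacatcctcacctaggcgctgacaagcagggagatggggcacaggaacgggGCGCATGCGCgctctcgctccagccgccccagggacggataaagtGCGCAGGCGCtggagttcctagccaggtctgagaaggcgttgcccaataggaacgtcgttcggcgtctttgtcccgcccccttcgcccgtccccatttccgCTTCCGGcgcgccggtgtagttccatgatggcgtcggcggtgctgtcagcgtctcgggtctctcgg
Ndufb4: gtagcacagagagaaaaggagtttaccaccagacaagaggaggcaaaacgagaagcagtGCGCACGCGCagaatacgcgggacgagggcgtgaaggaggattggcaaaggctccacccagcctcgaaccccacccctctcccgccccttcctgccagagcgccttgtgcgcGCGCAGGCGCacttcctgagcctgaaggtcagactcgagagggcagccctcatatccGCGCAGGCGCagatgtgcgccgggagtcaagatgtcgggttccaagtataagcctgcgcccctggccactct
Cox7c (chr13:86046746-86047045, minus strand), a small subunit of complex IV, and Cox5a (chr9:57520982-57521281, plus strand), a matrix-facing subunit of the same complex, are shown because they had some of the lowest p-values among nuclear members. Neither window held a match to these letters.
Cox7c: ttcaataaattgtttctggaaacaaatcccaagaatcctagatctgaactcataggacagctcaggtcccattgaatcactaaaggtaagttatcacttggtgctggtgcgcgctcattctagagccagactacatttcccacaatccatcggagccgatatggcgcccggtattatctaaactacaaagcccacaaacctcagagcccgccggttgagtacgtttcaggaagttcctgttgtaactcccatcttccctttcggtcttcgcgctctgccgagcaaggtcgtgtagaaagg
Cox5a: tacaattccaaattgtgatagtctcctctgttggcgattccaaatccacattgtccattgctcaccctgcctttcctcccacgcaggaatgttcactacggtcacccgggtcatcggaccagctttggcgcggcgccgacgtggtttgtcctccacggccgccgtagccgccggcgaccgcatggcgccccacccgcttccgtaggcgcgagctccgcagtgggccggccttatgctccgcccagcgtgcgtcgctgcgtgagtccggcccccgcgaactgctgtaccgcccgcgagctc
The last sequence is mt-Atp8 (chrM:7766-7969, plus strand), transcribed with mt-Atp6 on a single RNA, from the GENCODE M21 transcripts. Capitals mark the 43 bases it shares with mt-Atp6.
mt-Atp8: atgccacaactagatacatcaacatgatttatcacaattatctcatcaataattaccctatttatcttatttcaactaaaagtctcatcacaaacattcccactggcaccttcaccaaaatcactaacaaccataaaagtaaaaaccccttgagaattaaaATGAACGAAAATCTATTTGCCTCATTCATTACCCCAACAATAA

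The NRF1 letters were found in 24.6% of the 65 nuclear subunit windows and in 4.78% of the windows of all 27025 genes. The GABP and ETS letters were found in 23.1% of subunit windows and 9.12% of all windows. AANATGGC, the motif of YY1, which is also known from respiratory chain promoters, was found in 23.1% and 6.23%. The letters GGGCGG of SP1 stood in 40.0% of subunit windows against 35.9% of all, and the TATA box letters TATAAA in 7.69% against 14.2%. These shares describe letters in a window and not bound sites.

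The 13 mt- members together held 7.44% to 8.90% of all counts in the Control libraries, 8.41% to 9.38% in S-V, 7.80% to 9.02% in D+V and 7.02% to 9.25% in D-V. The 80 nuclear subunits held 0.997% to 1.17% in Control, 1.08% to 1.18% in S-V, 0.951% to 1.22% in D+V and 0.983% to 1.19% in D-V. The group ranges overlapped in both sums. Counts of mt- members exceeded those of nuclear subunits by a ratio of 6.73 to 8.66 over the 18 libraries, with both ends of that range in libraries of rotated mice. D+V held the highest and the lowest nuclear sum, at 1.22% in replicate 1 and 0.951% in replicate 4. The same libraries had the highest and the lowest sum of the 81 cytosolic ribosomal protein genes, which encode the machinery of translation and are also short transcripts, at 1.84% and 1.26%. The part of ribosomal or other short transcripts in the nuclear sums was not tested.

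**Figure D1:**
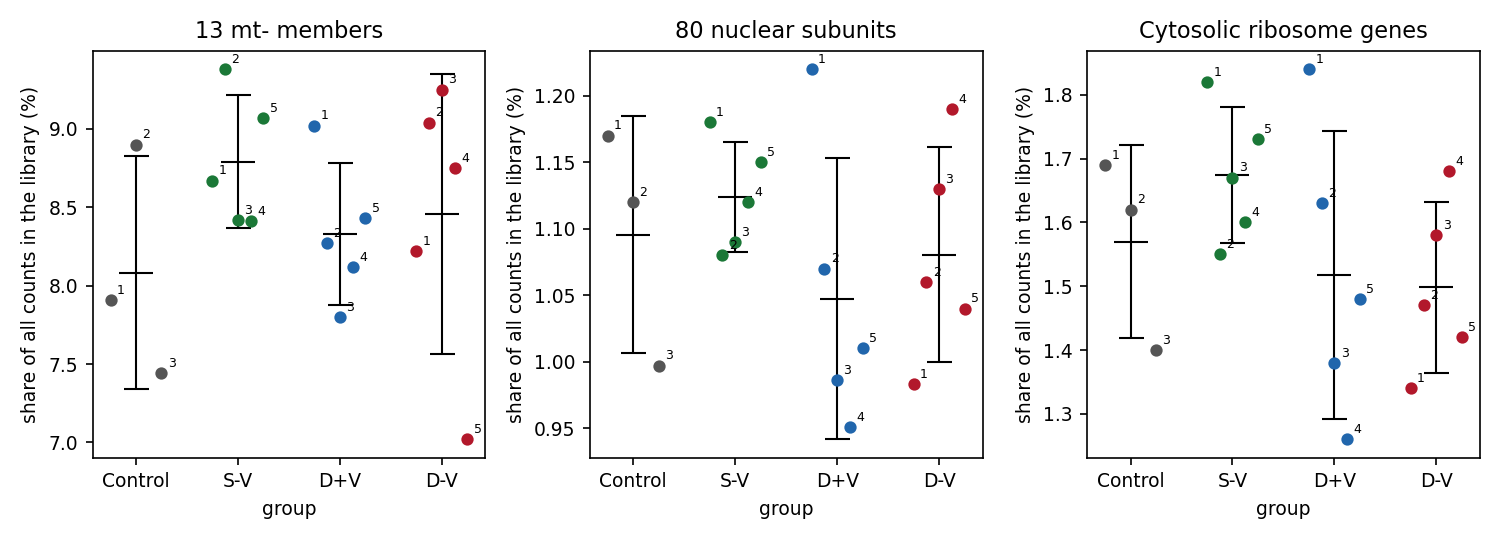
Share of all counts (%) in each library for the 13 mt- members, the 80 nuclear subunits and the 81 cytosolic ribosome genes. Points are libraries numbered by replicate, and the black bar and whiskers are the group mean ± SD. The groups overlap in each panel, and D+V replicate 1 (1.22%) and replicate 4 (0.951%) bound the nuclear panel.

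Levels per length, in CPM per kilobase averaged over 18 libraries, were highest for the mitochondrially encoded core subunits of complex IV. The catalytic subunit mt-Co1 stood at 20125 CPM per kilobase, mt-Co3 at 14051 and the copper-binding mt-Co2 at 9434. The proton channel subunit mt-Atp6 followed at 8438 and cytochrome b, mt-Cytb, at 6403. Among the mt- members of complex I the level ran from 5981 for mt-Nd1 through 5173 for mt-Nd4, 3994 for mt-Nd2, 2262 for mt-Nd5, 2135 for mt-Nd3 and 1454 for mt-Nd6 to 633 for mt-Nd4l. The lowest mt- member, mt-Atp8, stood at 513. The genes of one strand are transcribed as a single precursor, and their levels spanned this range. For mt-Atp8 and mt-Nd4l, which share 43 bases with mt-Atp6 and 7 bases with mt-Nd4, the assignment of reads by the authors' counting bears on the level. mt-Nd6 is the sole protein gene of the other DNA strand and overlaps mt-Nd5 by 14 bases, and whether strand was used in counting is not given in the sources used here.

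Nuclear subunits were lower per length than most mt- members. The highest were Cox8a, a small subunit of complex IV, at 753 CPM per kilobase, the catalytic beta subunit of ATP synthase, Atp5b, at 701, Cox4i1, a regulatory subunit of complex IV that binds ATP, at 557, Cox6a1 at 505 and the alpha subunit of ATP synthase, Atp5a1, at 412. Isoforms known mainly from other tissues, such as muscle, lung or testis, were near the bottom, with Cox7a1 at 1.00, Cox4i2 at 1.52, Ndufa4l2 at 2.24, Cox6b2 at 4.14 and Cox6a2 at 5.13 CPM per kilobase. Assembly factors, which are needed only while a complex is built, lay between 2.34 for Sdhaf3 and 47.1 for Sdhaf2, apart from Cox7a2l, which links complexes into supercomplexes, at 127. Such levels rest on the annotated transcript chosen for length, which was 4323 bases for Sdhaf3. In mean CPM, Sdhaf3 (10.1) lay above Ndufaf6 (4.37) and Ndufaf2 (9.59). The flavoprotein of complex II, Sdha, varied least between libraries, from 369 to 404 CPM (SD 0.0368 of log2 CPM).

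The nuclear subunits varied together from library to library. Over the 18 libraries, after the group means were taken off, the median pairwise Pearson correlation was 0.78 among the 75 nuclear subunits at 5 CPM or more, and 0.00 among all 10589 genes at that level. It was 0.78 within complex I, 0.69 within complex III, 0.81 within complex IV and 0.82 within complex V, and 0.24 among the 4 genes of complex II. The 13 mt- members had a median of 0.64 among themselves and 0.30 with nuclear subunits. These correlations are descriptive, since the genes of a library share its depth, its scaling and its profile of fragment lengths.

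Across all 4 groups, 0 of the 108 members differed at an adjusted p under 0.05 in edgeR's quasi-likelihood test, where 0.0271% of all tested genes did. At an unadjusted p under 0.05, 7 of 108 differed, against 15.7% of all tested genes. The members with values to be described in each comparison follow, by complex and with the mt- members last.

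S-V against Control addressed turning one way with vision blocked. No member was called by edgeR (0 of 108, against 0.0% of all tested genes). The unadjusted p was under 0.05 for 10 members higher and 0 lower, against 7.41% of all tested genes higher and 5.95% lower, so the share of members higher was close to that of all genes. DESeq2 on the same counts called 2 members, Cox7c and mt-Nd3, against 1.46% of all tested genes, and limma voom called 1, mt-Nd3, against 2.15%. The log2 fold change was above 0 in 65 of 80 nuclear subunits, 10 of 13 mt- members and 12 of 14 factors, against 50.6% of all tested genes. Its median was 0.11 over nuclear subunits and 0.12 over mt- members, against 0.002 over all tested genes. With 1 library left out at a time the nuclear median ran from 0.037, without Control replicate 3, to 0.142, without Control replicate 1, and the mt- median from 0.053, without Control replicate 3, to 0.22, without Control replicate 2. In 11 members every S-V library lay above every Control library, and in 0 every one lay below, against 6.62% and 5.74% of all tested genes.

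In complex I, Ndufs1, the large iron-sulfur subunit that carries electrons away from the NADH site, stood at 136, 139 and 133 CPM in Control and at 148, 152, 144, 147 and 153 CPM in S-V. All 5 S-V libraries were above the 3 controls (log2 0.13, SE 0.05, edgeR adjusted p = 0.304). Ndufs6, a zinc-binding subunit, was at 25.2, 26.6 and 19.6 CPM in Control and 27.0 to 32.7 CPM in S-V, also without overlap (log2 0.29, SE 0.15, adjusted p = 0.398). The flavin-bearing subunit Ndufv1, which takes the electrons from NADH, was at 139 to 157 CPM in Control and 131 to 147 CPM in S-V (log2 -0.09, SE 0.07). Its direction differed from that of Ndufs1, its neighbour in the electron path, and the groups overlapped.

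In complex II the 4 genes had a median log2 fold change of 0.037, the lowest of the complexes. Sdha was at 404, 382 and 369 CPM in Control and 382, 400, 373, 400 and 382 CPM in S-V (log2 0.01, SE 0.05). In complex III the median was 0.14, and the core subunit Uqcrc2 was at 204 to 214 CPM in Control and 216 to 230 CPM in S-V with no overlap (log2 0.08, SE 0.05, adjusted p = 0.517). Its partner Uqcrc1 was at 243 to 296 CPM and 244 to 272 CPM (log2 -0.10, SE 0.08). The Rieske iron-sulfur protein Uqcrfs1, which hands electrons to cytochrome c1, was at 127 to 137 CPM and 131 to 154 CPM (log2 0.13, SE 0.07).

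In complex IV, Cox7c stood at 89.6, 100 and 79.9 CPM in Control and at 133, 125, 109, 101 and 119 CPM in S-V. The groups did not overlap, though S-V replicate 4 and Control replicate 2 lay next to each other (log2 0.39, SE 0.10, adjusted p = 0.157, DESeq2 adjusted p = 0.02, range of adjusted p over all alternatives 0.02 to 0.855). The larger subunits were closer to 0, with Cox4i1 at 0.05 (SE 0.10), Cox5a at 0.03 (SE 0.09) and Cox5b at 0.05 (SE 0.12). In complex V, Atp5mpl, a small membrane subunit, was at 37.6, 41.5 and 31.5 CPM in Control and 52.4, 47.0, 41.7, 41.8 and 51.2 CPM in S-V. The groups touched without overlap (log2 0.35, SE 0.14, adjusted p = 0.274). Atp5l, the g subunit at the dimer interface, was at 102 to 121 CPM in Control and 130 to 152 CPM in S-V (log2 0.28, SE 0.12, adjusted p = 0.329), and Atp5f1, a stalk subunit, at 228 to 268 and 273 to 308 CPM (log2 0.18, SE 0.08, adjusted p = 0.335). The catalytic head subunits lay lower, with Atp5a1 at log2 -0.07 (SE 0.06) and Atp5b at -0.05 (SE 0.06), both with overlapping groups.

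Among the factors, the complex I assembly factor Ndufaf2 was at 7, 10.7 and 7.82 CPM in Control and 11.5, 13.2, 9.88, 9.62 and 13.1 CPM in S-V. Control replicate 2 lay within the S-V range (log2 0.43, SE 0.16, adjusted p = 0.259). Sdhaf2, which attaches the flavin to Sdha, was at 35.3 to 37.1 CPM in Control and 37.9 to 42.5 CPM in S-V (log2 0.17, SE 0.10, adjusted p = 0.488), and Atp5s, coupling factor B, at 13.1 to 14.2 and 15 to 19.1 CPM (log2 0.26, SE 0.12, adjusted p = 0.362). Ndufb1-ps was at 16.9, 18.2 and 15.8 CPM in Control and 25.2, 22.0, 19.4, 17.0 and 22.2 CPM in S-V (log2 0.32, SE 0.12, adjusted p = 0.247).

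Among the mt- members, mt-Nd3, a small core subunit of the complex I membrane arm (chrM:9459-9806, plus strand), stood at 501, 720 and 509 CPM in Control and at 1043, 972, 782, 773 and 937 CPM in S-V. All 5 S-V libraries lay above the 3 controls, and this was the lowest p of any member in the comparison (log2 0.64, SE 0.15, adjusted p = 0.157). DESeq2 gave it an adjusted p of 0.00499 and voom 0.0458, and the range over all alternatives was 0.00499 to 0.715. mt-Co1 was at 26655 to 30855 CPM in Control and 31393 to 34814 CPM in S-V, again without overlap (log2 0.21, SE 0.08, adjusted p = 0.256). mt-Nd3 is transcribed on the same precursor as its neighbour mt-Co3, and its counts were 4.92% to 6.22% of those of mt-Co3 in Control and 6.55% to 8.67% in S-V. mt-Co3 itself was at log2 0.19 (SE 0.11), mt-Nd5 at -0.17 (SE 0.12) and mt-Nd6 at -0.14 (SE 0.12), so the mt- members did not share a single direction.

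**Figure D2:**
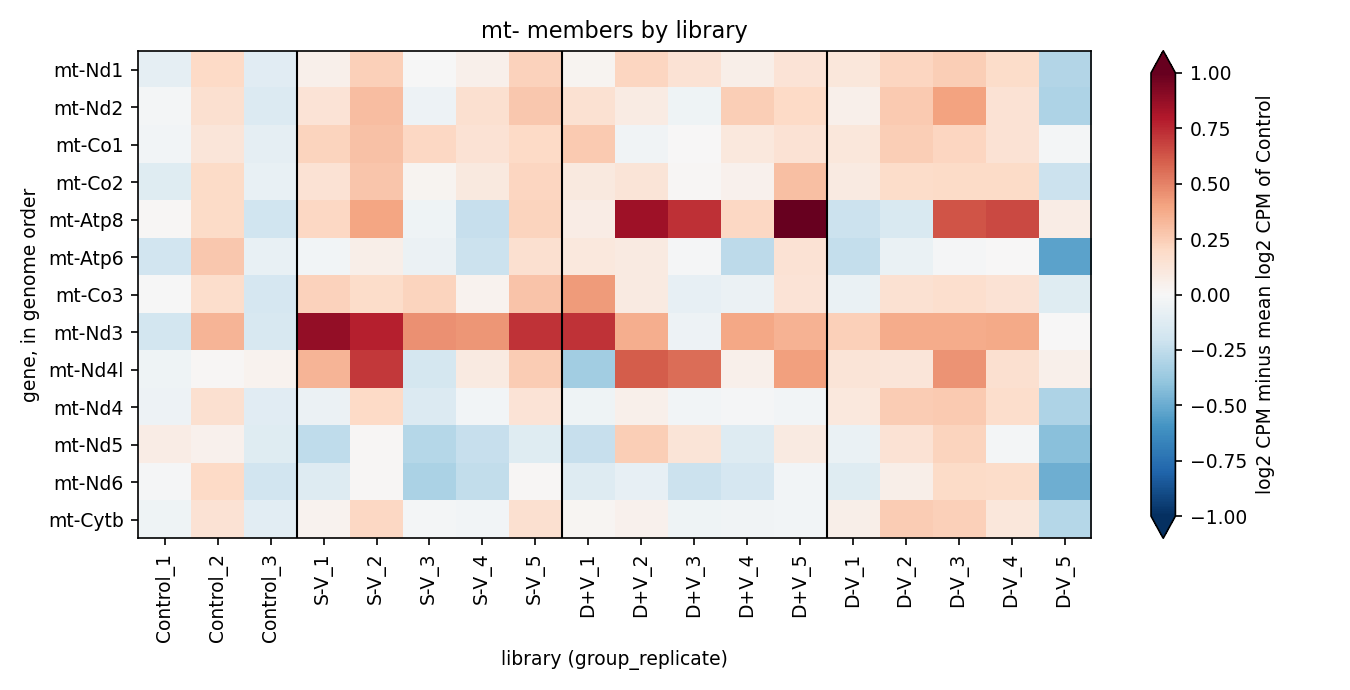
Each of the 13 mt- members (vertical, in genome order) in each library (horizontal, group and replicate), coloured by log2 CPM minus the mean of the 3 Control libraries, with colours saturating at -1 and 1. mt-Nd3 lies above all controls in the 5 S-V libraries (773 to 1043 CPM), mt-Atp8 stands out in D+V replicate 5 (363 CPM), and D-V replicate 5 is below the Control mean in most genes (mt-Nd1 at 4371 CPM).

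Nuclear subunits of different length had different medians in S-V against Control. Transcript length, from GENCODE M21, was 351 to 618 bases in the shortest 27 subunits, 623 to 983 in the middle 26 and 1001 to 4715 in the longest 27. The median log2 fold change was 0.17 in the short, 0.076 in the middle and 0.061 in the long class. The Spearman correlation of log2 fold change with length over the 80 subunits was -0.50, a description over genes that share libraries. Nuclear subunits had a median transcript length of 751.5 bases and mt- members of 784, against 2942 over all tested genes. When each library's own trends of log2 CPM on transcript length and on GC content, fitted over all genes, were removed, the nuclear median was 0.013, with 46 of 80 subunits above 0 (52.3% of all tested genes were), and the correlation with length was -0.20. The Spearman correlation with GC content over the 80 subunits was -0.36 as fitted and 0.30 after the removal, so it took the opposite sign. It was -0.24 and 0.52 in D+V against Control, and 0.215 and 0.363 in D+V against S-V. In D-V against S-V it was 0.37 and -0.013. In S-V against Control the same correction left Cox7c at 0.15 and mt-Nd3 at 0.60. The mt- median there was 0.121 as fitted and 0.018 after the removal, against 0.007 over all tested genes after it. With this correction 0.0% of all tested genes were called in each of the 7 comparisons. What sets such a trend in a library was not tested.

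**Figure D3:**
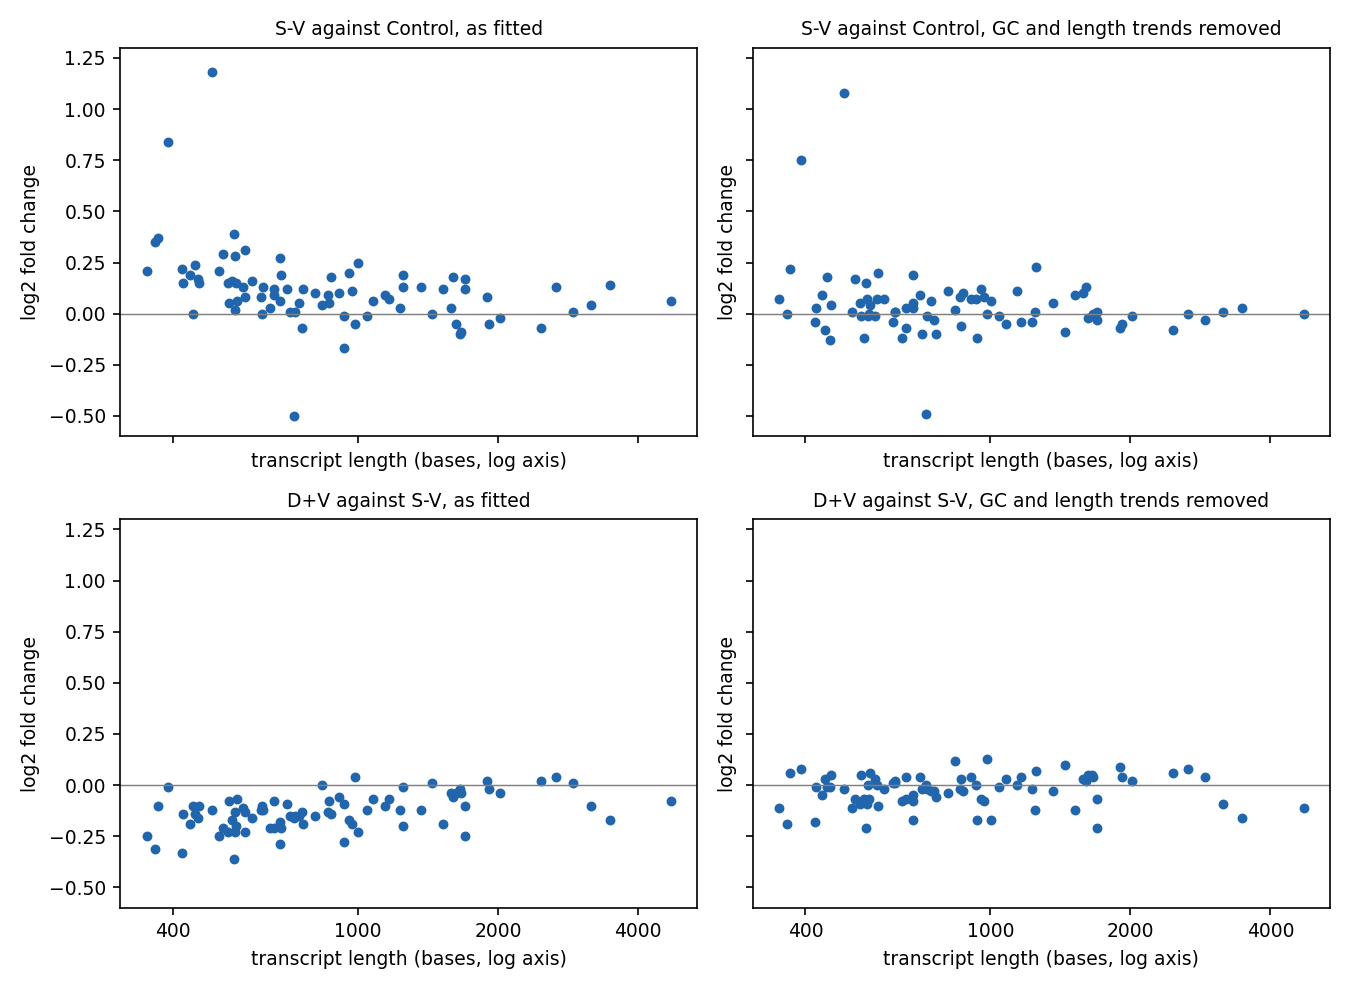
Log2 fold change of the 80 nuclear subunits against transcript length (bases, log axis) for S-V against Control (top) and D+V against S-V (bottom), as fitted (left) and with each library's GC and length trends removed (right). Points are genes. In the left panels short transcripts lie farther from 0 than long ones (Spearman correlations of -0.50 and 0.47), and in the right panels the slopes are shallower (-0.20 and 0.15).

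The comparison of D+V with Control concerned rotation in both directions with vision free. No member was called (0 of 108 with edgeR), against 0.942% of all tested genes. DESeq2 called Ndufs1 (1 of 108, against 4.95% of all), and voom called 4 members, Cox5a, mt-Atp8, Ndufs1 and Ndufs7 (12.7% of all). By edgeR 3 members were higher and 0 lower at an unadjusted p under 0.05, against 10.8% and 6.86% of all tested genes. Nuclear subunits were above 0 in 29 of 80 and mt- members in 10 of 13, against 49.5% of all tested genes. The medians were -0.02 over nuclear subunits and 0.11 over mt- members. With 1 library left out at a time the nuclear median ran from -0.106, without D+V replicate 1, to 0.024, without D+V replicate 4, and was -0.093 without Control replicate 3. The mt- median ran from 0.053 to 0.197, without Control replicates 3 and 2 in turn. With the replicate number as a block, although the labels state no pairing, 0 members were called, against 0.0271% of all tested genes. Groups did not overlap for 2 members, both higher in D+V, against 3.67% of all tested genes higher and 3.96% lower.

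Those members were Ndufs1 and Uqcrc2. Ndufs1 stood at 136, 139 and 133 CPM in Control and at 163, 141, 149, 155 and 157 CPM in D+V (log2 0.17, SE 0.05, adjusted p = 0.116, DESeq2 adjusted p = 0.0136, voom adjusted p = 0.0398, range of adjusted p over all alternatives 0.0136 to 0.936). D+V replicate 2 was close to the highest control. With the GC and length trends removed the value was 0.08. Uqcrc2 was at 204 to 214 CPM in Control and 215 to 234 CPM in D+V (log2 0.11, SE 0.05, adjusted p = 0.313).

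Cox5a, which faces the mitochondrial matrix in complex IV, was at 93.0, 96.3 and 85.0 CPM in Control and 99.8, 74.1, 71.3, 79.0 and 78.9 CPM in D+V. Replicates 2 to 5 of D+V lay below all controls and replicate 1 above them (log2 -0.18, SE 0.09, adjusted p = 0.310). Without D+V replicate 1 the value was -0.27 with an adjusted p of 0.0278, within a range of 0.0246 to 0.646 over all alternatives. Ndufs7, which holds the last iron-sulfur cluster before ubiquinone, was at 72.0 to 80.5 CPM in Control and at 83.9, 66.3, 61.9, 57.3 and 65.8 CPM in D+V, with the same replicate apart (log2 -0.21, SE 0.11, adjusted p = 0.325). Without that library 2 members, Cox5a and Ndufs7, were called lower, against 8.58% of all tested genes called in either direction.

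mt-Atp8, a short subunit of the ATP synthase membrane part, was at 76.3, 86.3 and 66.0 CPM in Control and 79.9, 136, 126, 87.5 and 363 CPM in D+V. Replicate 5 stood far above the other libraries (log2 1.05, SE 0.42, adjusted p = 0.215, and 0.49 with D+V replicate 5 left out). In that library mt-Atp8 counts were 5.58% of those of mt-Atp6, against 1.18% to 2.16% in the other 17 libraries. mt-Atp6 itself was at 4925 to 6507 CPM in D+V and 5167 to 7083 CPM in Control (log2 0.01, SE 0.12). The share of reads over the 43 shared bases that went to each gene was not tested. mt-Nd3 was at 550 to 937 CPM in D+V (log2 0.35, SE 0.15, adjusted p = 0.229), overlapping Control.

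**Figure D4:**
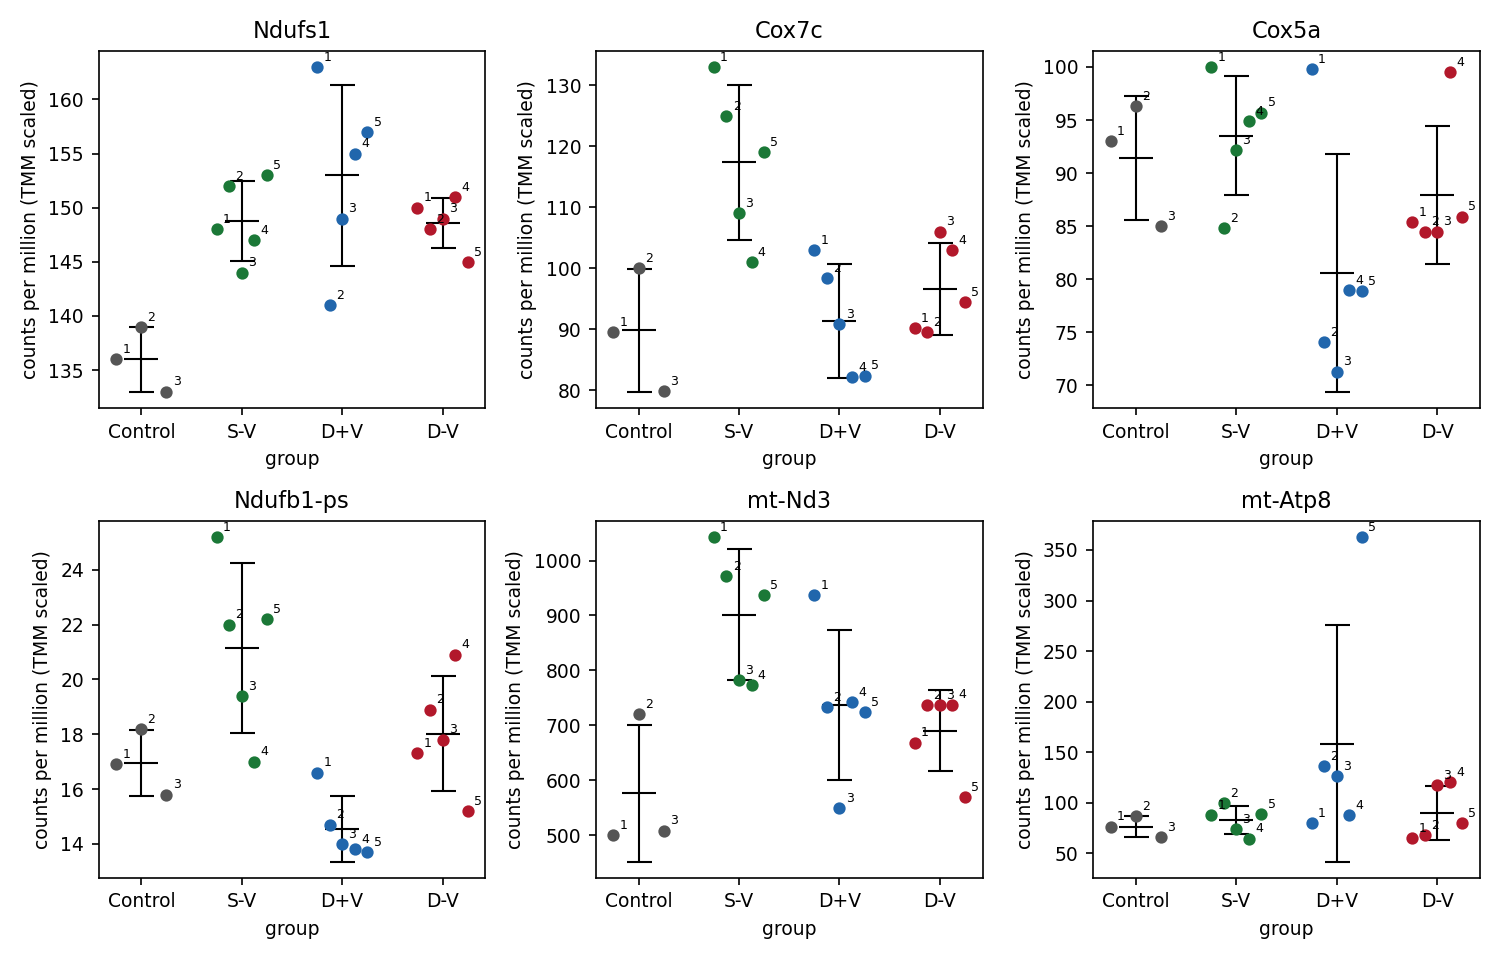
CPM (TMM scaled) of 6 members in each library, by group, with points numbered by replicate and the black bar and whiskers at the group mean ± SD. Ndufs1 lies above the 3 controls in all 15 rotated libraries, Cox7c and mt-Nd3 are highest in S-V, Cox5a has D+V replicate 1 (99.8 CPM) apart from replicates 2 to 5, and mt-Atp8 has D+V replicate 5 at 363 CPM.

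In D-V against Control, the comparison for the Coriolis illusion, 0 of 108 members were called by edgeR, DESeq2 or voom, against 0.0%, 0.0203% and 0.0% of all tested genes. At an unadjusted p under 0.05, 1 member was higher and 1 lower, against 3.37% and 2.65% of all tested genes. Nuclear subunits were above 0 in 46 of 80 (median 0.015) and mt- members in 10 of 13 (median 0.099), against 51.4% of all tested genes. With 1 library left out at a time the nuclear median took either sign, from -0.059 without Control replicate 3 to 0.066 without D-V replicate 1. The mt- median ran from 0.051 to 0.194, without Control replicates 3 and 2 in turn. Groups did not overlap for 3 members higher and 1 lower, against 2.75% and 2.37%. Ndufs1 was at 150, 148, 149, 151 and 145 CPM in D-V, all above the controls (log2 0.13, SE 0.05, adjusted p = 0.804). The others higher were Atp5s, at 15.4 to 19.0 CPM against 13.1 to 14.2 CPM (log2 0.23, SE 0.12), and mt-Nd4l, at 168 to 221 CPM against 157 to 166 CPM (log2 0.19, SE 0.19).

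Cox4i2, the isoform of subunit 4 known from lung and from oxygen sensing, was lower in D-V, at 0.979, 1.07, 1.17, 0.813 and 0.713 CPM against 1.5, 1.99 and 1.21 CPM in Control. The groups did not overlap, at a level of few counts (log2 -0.72, SE 0.33, adjusted p = 0.818). A lower level was not particular to D-V. Cox4i2 was at 0.585 to 1.53 CPM in S-V and 0.586 to 1.42 CPM in D+V, both overlapping Control. Its value in D+V against Control was log2 -0.66 (SE 0.33, edgeR adjusted p = 0.3). The abundant partner Cox4i1 was at 356 to 445 CPM in D-V against 386 to 474 CPM in Control (log2 -0.07, SE 0.10). The 6 endothelial and pericyte markers summed to 262 to 281 CPM in D-V and 255 to 279 CPM in Control, with a median log2 fold change of -0.071. Their median was -0.292 in D+V against Control and -0.143 in S-V against Control. The part of vascular cells in the Cox4i2 values was not tested. Cox7a1, a minor isoform of subunit 7a, ranged from 0.132 to 0.992 CPM over the 18 libraries. Cox6b2, a minor isoform of subunit 6b, was highest in 3 of the libraries with choroid plexus markers and stood at 4.11 CPM in D+V replicate 2, 3.96 in D-V replicate 3 and 3.37 in D-V replicate 4. In the other libraries it was at 0.276 to 2.33 CPM. The part of choroid plexus tissue in these values was not tested.

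For the 3 rotated groups averaged and set against Control, which shares its controls with the comparisons above, 0 of 108 members and 0.0% of all tested genes were called by edgeR, with 3 members higher and 1 lower at an unadjusted p under 0.05 (7.44% and 5.44% of all tested genes). Nuclear subunits were above 0 in 54 of 80, against 50.5% of all tested genes. Their median was 0.03, and with 1 library left out at a time it ran from -0.038, without Control replicate 3, to 0.071, without Control replicate 1. DESeq2 called mt-Nd3 and Ndufs1 (2 of 108, against 1.61% of all), and voom called 0, against 2.58% of all. Ndufs1 was the single member with all 15 rotated libraries above all 3 controls, a pattern shown by 0.691% of all tested genes, and in 0 members did all lie below, against 0.359%. Its log2 fold change was 0.14 (SE 0.05, adjusted p = 0.226). It was 0.11 with upper quartile scaling and 0.05 with the GC and length trends removed. mt-Nd3 was at 0.42 (SE 0.13, adjusted p = 0.211). In the same comparison the thalamus and habenula markers had a median log2 fold change of -0.764, with 6 of 9 at an unadjusted p under 0.05, and the red blood cell markers one of 1.04, with 5 of 5. The choroid plexus markers had a median of 1.96, with 0 of 10. The part of these tissues in the Ndufs1 and mt-Nd3 values was not tested.

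**Figure D5:**
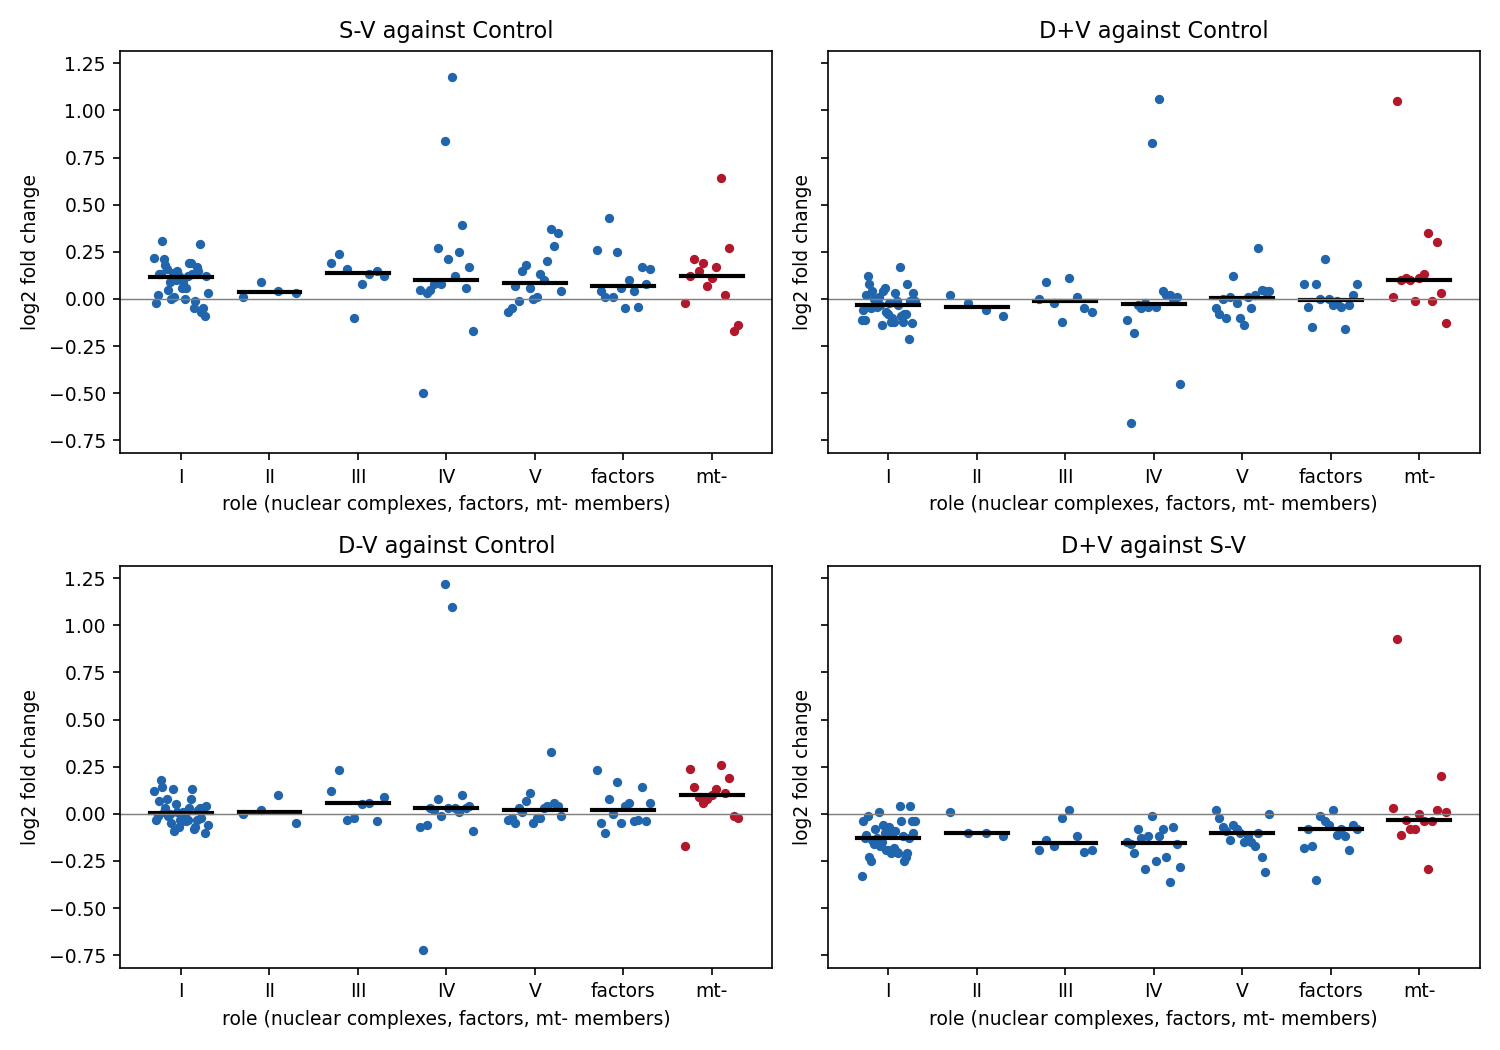
Log2 fold change of every member by role (nuclear subunits of complexes I to V, factors and mt- members) in 4 comparisons. Points are genes and the black bar is the median. Nuclear medians lie above 0 in S-V against Control (0.11 over all subunits), near 0 in D+V against Control and D-V against Control, and below 0 in D+V against S-V (-0.13).

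Among the rotated groups, D+V was set against S-V. These groups differed in rotation and in vision together. No member was called (0 of 108 with edgeR, against 0.0% of all tested genes). At an unadjusted p under 0.05, 1 member was higher and 18 were lower, against 8.13% of all tested genes higher and 4.69% lower, so the share of members lower exceeded that of all genes. DESeq2 called 2, Cox7c and Ndufb1-ps (1.0% of all), and voom called 24, of which mt-Atp8 alone was higher (13.2% of all). Nuclear subunits were below 0 in 74 of 80, factors in 13 of 14 and mt- members in 7 of 13, against 51.1% of all tested genes. The median of nuclear subunits was -0.13, against -0.005 over all tested genes. With 1 library left out at a time it ran from -0.213, without D+V replicate 1, to -0.071, without D+V replicate 4. By complex it was -0.13 in I, -0.10 in II, -0.16 in III, -0.16 in IV and -0.099 in V. By length it was -0.16 in the short class, -0.15 in the middle and -0.07 in the long class. With the GC and length trends removed the nuclear median was -0.012 and 46 of 80 subunits were below 0, against 50.9% of all tested genes. The medians of this comparison and of S-V against Control rest on the same 5 S-V libraries.

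Ndufb1-ps was the single member without overlap, lower in D+V (0.596% of all tested genes were lower without overlap and 0.616% higher), at 16.6, 14.7, 14, 13.8 and 13.7 CPM against 17.0 to 25.2 CPM in S-V (log2 -0.54, SE 0.10, adjusted p = 0.189, with DESeq2 adjusted p = 0.00277 and 0.00277 to 0.592 over all alternatives). GENCODE M21 types it as an RNA from a bidirectional promoter, not as a coding gene, although its symbol refers to a complex I subunit. Cox7c stood at 103, 98.4, 90.8, 82.2 and 82.4 CPM in D+V (log2 -0.36, SE 0.08, adjusted p = 0.189), where replicate 1 overlapped the lowest S-V library at 101 CPM. Cox5a was at -0.21 (SE 0.08, adjusted p = 0.291). The smaller subunits of complexes I and V at an unadjusted p under 0.05 included Ndufa1 at -0.33, Ndufs4 at -0.25, Ndufb6 at -0.21 and Atp5mpl at -0.31.

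D+V replicate 1 bore on these values. It had the highest nuclear sum of the 18 libraries, as given above. Without it, edgeR called 18 members in D+V against S-V, all lower, against 10.1% of all tested genes. They were Ndufa8, Ndufb6, Ndufb8, Ndufb10, Ndufc2, Ndufs3, Ndufs4, Ndufs5 and Ndufs6 of complex I, Cox5a, Cox6c, Cox7b and Cox7c of complex IV, Atp5j and Atp5mpl of complex V, the factors Ndufaf2 and Sdhaf2, and Ndufb1-ps. The nuclear median was then -0.21. The labels give nothing that sets this library apart, so it was kept in all values above.

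In D-V against S-V, which differed in the rotation while vision was blocked in both, 0 of 108 members were called by edgeR, DESeq2 or voom, against 0.0%, 0.0271% and 0.0% of all tested genes. The unadjusted p was under 0.05 for 0 members higher and 9 lower, against 3.37% and 2.93% of all tested genes. Nuclear subunits were below 0 in 68 of 80, against 50.1% of all tested genes (median -0.079, and -0.023 with the trends removed). With 1 library left out at a time the nuclear median ran from -0.129, without D-V replicate 4, to -0.03, without D-V replicate 1. mt-Nd3 was the single member without overlap, lower in D-V (0.894% of all tested genes were lower without overlap and 1.15% higher), at 669, 737, 737, 738 and 570 CPM against 773 to 1043 CPM (log2 -0.38, SE 0.13, adjusted p = 0.671). Cox7c was at -0.28 (SE 0.08, adjusted p = 0.651), Atp5mpl at -0.30 (SE 0.12, adjusted p = 0.750) and Ndufaf2 at -0.35 (SE 0.14, adjusted p = 0.750), with overlapping groups. The 81 cytosolic ribosome genes, measured beside them, had a median of -0.17, with 0 higher and 21 lower at an unadjusted p under 0.05.

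In D-V against D+V, which differed in vision at the same rotation, 0 of 108 members were called by edgeR, against 0.0% of all tested genes. DESeq2 called 0, against 1.77% of all, and voom 2, mt-Atp8 and Sdhaf2 (5.55% of all). At an unadjusted p under 0.05, 2 members were higher and 1 lower, against 5.03% and 8.54% of all tested genes, and 0 were without overlap (0.637% higher and 0.942% lower among all tested genes). Nuclear subunits were above 0 in 60 of 80, against 52.3% of all tested genes (median 0.044, and -0.008 with the trends removed). The nuclear median turned to -0.011 without D+V replicate 4 and to -0.004 without D-V replicate 4, and it was 0.126 without D+V replicate 1. The 2 higher were Ndufb1-ps, at 15.2 to 20.9 CPM against 13.7 to 16.6 CPM (log2 0.31, SE 0.10, adjusted p = 0.200), and the membrane anchor of complex II, Sdhc, at 71.7 to 92.6 CPM against 69.2 to 85.8 CPM (log2 0.16, SE 0.07, adjusted p = 0.344). The lower was mt-Atp8 (log2 -0.82, SE 0.36, adjusted p = 0.334), whose value was -0.26 without D+V replicate 5. In a fit that left out D+V replicate 1, 4 members were called higher in D-V (Cox5a, Ndufb1-ps, Ndufs7 and Sdhaf2), against 8.38% of all tested genes.

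A further set of core subunits and isoform partners overlapped between the groups in each of the 7 comparisons. Over the 18 libraries Ndufs8, an iron-sulfur subunit of complex I, ranged from 64.7 to 104 CPM, and Ndufv2, which binds next to Ndufv1, from 122 to 185 CPM. The iron-sulfur protein of complex II, Sdhb, ranged from 106 to 135 CPM, and its membrane anchor Sdhd from 78.8 to 99.4 CPM. In complex V the gamma subunit Atp5c1, which turns inside the catalytic head, ranged from 234 to 285 CPM. The genes of its proton-carrying c subunit ranged from 109 to 163 CPM for Atp5g1, 45.3 to 69.7 CPM for Atp5g2 and 127 to 181 CPM for Atp5g3. Of the isoform partners, Ndufa4 was at 130 to 186 CPM, Cox6b1 at 99.1 to 161 CPM and Cox7a2 at 73.3 to 123 CPM. For these 11 genes the log2 fold changes against Control lay between -0.14, for Atp5g3 in D+V, and 0.17, for Ndufa4 in S-V (SE 0.10 and 0.09, adjusted p = 0.479 and 0.458). The assembly factor Ndufaf4 ranged from 20.5 to 33.7 CPM, also with overlap, and was at 0.25 in S-V against Control (SE 0.12, adjusted p = 0.376).

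The genes around the pathway were read from lists, of which 0 members were called by edgeR in any comparison. They covered 35 other assembly factors, 16 electron carrier genes of coenzyme Q and cytochrome c, 27 genes of mitochondrial DNA expression, 11 transcription regulators of mitochondrial genes, 17 genes of the tricarboxylic acid cycle and 78 mitochondrial ribosomal proteins. Counts at an unadjusted p under 0.05 are given for some lists and comparisons only. In S-V against Control, 6 of 27 mitochondrial DNA expression genes were higher and 1 lower. Of 78 mitochondrial ribosomal proteins, 7 were higher and 1 lower. The shares of all tested genes were 7.41% higher and 5.95% lower, so the ribosomal share higher was close to that of all genes. In D+V against S-V, 0 of 78 mitochondrial ribosomal proteins were higher and 9 lower. Of 35 other assembly factors, 1 was higher and 6 lower there, against 8.13% and 4.69% of all tested genes. The lowest adjusted p in these lists belonged to D+V against Control, for Mrpl10 of the large mitochondrial ribosomal subunit (log2 -0.22, SE 0.06, adjusted p = 0.0634), for Dld, the dihydrolipoamide dehydrogenase of the tricarboxylic acid cycle (log2 0.29, SE 0.08, adjusted p = 0.0814), and for the mitochondrial transcription terminator Mterf1a (log2 0.68, SE 0.21, adjusted p = 0.0967). Coq8b, a kinase-like protein of coenzyme Q synthesis, was at 0.50 in D-V against D+V (SE 0.12, adjusted p = 0.0976).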

How the data were processed

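The deposited table holds one estimated count per gene and library, produced by the authors; 7.35% of its values were not whole, and all were rounded for the tests. The submitters' processing notes name Bowtie2 (2.2.8), HISAT2, StringTie (1.3.1) and DESeq2, without saying which step each served. The sources used here give no genome build, annotation or strand setting for the counts. Per the labels' protocols, RNA was extracted with Trizol, selected on oligo(dT) and made into NEBNext Ultra libraries for a NovaSeq instrument; no molecular identifiers are mentioned, so counts are reads and not molecules.

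Of the gene identifiers, 21973 have a symbol and 90 do not. Genes were kept by edgeR's filterByExpr (14763 genes, 99.98% of counts) and scaled by TMM. One model with 4 group means over the 18 libraries was fitted with edgeR 4.0.16 (R 4.3.3, robust quasi-likelihood fit and test), with p-values adjusted by Benjamini-Hochberg over all genes tested and a threshold of 0.05. The common biological coefficient of variation was 15.4%. The members, lists, named genes and tests were chosen with earlier results of these data known. The genes named were drawn from the mt- members, the core nuclear subunits, isoform pairs, the 3 members of smallest p in each direction per comparison and the factor of smallest p. Others named, such as Atp5l, Atp5f1, Ndufs6, Ndufa1, Ndufs4 and Ndufb6, were chosen after their values were seen. Not every member's values are reported here.

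Alternatives were DESeq2 1.42.0, limma 3.58.1 (voom with quality weights), other scalings, filters and library sets, leaving out each library, the replicate number as a block, and removal of each library's trends on transcript length and GC content (splines of 5 degrees of freedom, GENCODE M21). The choroid plexus marker level as a covariate was an unplanned alternative. Robust fitting and the transcript used for length were settled after results had been seen: 8 edgeR settings gave 134 to 139 called genes in D+V against Control and called 0 members in any comparison. Of the 3 length definitions tried, the text uses the transcript with the longest coding sequence. Rps6k kinases were taken out of the cytosolic ribosome list after it was first counted. Over 24 pairs of libraries with the same number the deviations from group means correlated at -0.554 to 0.389, and 9 pairs exceeded 0.1. All 3 Control and D+V pairs did (0.206, 0.114 and 0.196). The labels state no pairing and libraries of different numbers were not compared in this way, so these values do not establish one. In D+V against Control the block called 0 members and 4 genes, against 139 without it. Motifs were counted with Python 3.11.15 and pandas 2.3.3, and figures drawn with matplotlib 3.10.9. The statistical code was tested on simulated data.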

Additional observations from a re-analysis of the deposited data

Results flagged for a closer look

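In groups of 5 libraries, a value was listed when its gap to the next one exceeded 0.71 of the group's range, Dixon's 95% critical value. Of 168 groups of named members and summed shares, 15 held such a value, and chance gives about 1 in 20 (5%).

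D+V replicate 1 was above the other libraries of its group for Atp5b (1442 CPM), Cox5a (99.8 CPM), Cox5b (223 CPM), the complex IV subunit Cox6b1 (161 CPM), Ndufs3 (111 CPM) and the flavoprotein partner Ndufv2 (185 CPM). D+V replicate 5 was above its group for mt-Atp8 (363 CPM), and D+V replicate 2 for mt-Nd4 (7210 CPM, against 6748 to 6879 CPM). In D-V, replicate 5 was below its group for mt-Co2 (5179 CPM) and mt-Nd1 (4371 CPM), replicate 3 above it for mt-Nd4l (221 CPM), replicate 4 above it for Cox5a (99.5 CPM) and replicate 2 above it for Atp5s (19.0 CPM). In S-V, replicate 2 was below its group for Atp5b (1261 CPM) and Ndufv1 (131 CPM).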

How the results depend on the processing

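With edgeR, 0 members were called in each comparison under every other scaling, filter and library set run except those named here. DESeq2 called 2 members in S-V against Control (1.46% of all tested genes) and 1 in D+V against Control (4.95%). It called 2 in the rotated mean against Control (1.61%) and 2 in D+V against S-V (1.0%). With limma voom, 1 member was called in S-V against Control (2.15% of all tested genes) and 4 in D+V against Control (12.7%). Voom also called 24 in D+V against S-V (13.2%) and 2 in D-V against D+V (5.55%). Leaving out 1 library gave 0 to 2 members in D+V against Control, 0 to 4 in D-V against D+V and 0 to 18 in D+V against S-V. Each maximum came without D+V replicate 1, where 8.58%, 8.38% and 10.1% of all tested genes were called in turn. The other comparisons gave 0 members whichever library was left out. The nuclear medians then ran from 0.037 to 0.142 in S-V against Control and from -0.213 to -0.071 in D+V against S-V, and the mt- medians from 0.053 to 0.22 in S-V against Control and from -0.082 to 0.048 in D-V against S-V. The replicate block called 0 members in each comparison, and in D+V against Control 4 genes against 139 without it, with a nuclear median of 0.121 in S-V against Control. Leaving out the 6 libraries with most choroid plexus marker RNA, the nuclear median of D-V against S-V was -0.215 and mt-Nd6 there was -0.02 (an alternative chosen after seeing the data). With length and GC trends removed, the mt- median was -0.066 in D+V against Control, 0.113 in D-V against S-V and 0.185 in D-V against D+V, and with the replicate block as well -0.071, 0.114 and 0.185, and -0.035 in S-V against Control. The 2 other length definitions, also added after seeing the data, gave 0.21 in D-V against D+V and -0.057 in D+V against Control (median over coding transcripts, with 2 members called in D-V against D+V, mt-Nd4 and mt-Nd6, against 0.0135% of all tested genes), and -0.099 in S-V against Control, -0.081 in D+V against Control, -0.042 in the rotated mean and 0.13 in D-V against S-V (longest transcript). So in some comparisons the sign of the mt- median depended on the correction or on its length definition. With the length definition used in the text, it kept its sign in the others. Without and with the trends removed it was 0.121 and 0.018 in S-V against Control, and 0.099 and 0.117 in D-V against Control. It was 0.116 and 0.003 in the rotated mean against Control, and -0.035 and -0.105 in D+V against S-V. mt-Atp6 in D-V against D+V was 0.11, 0.11, 0.12 and 0.03 under these 4 corrections and -0.18 without one. The causes were not tested. Of 1204 alternatives to 46 values of named members, 5 reversed direction and 27 passed the threshold.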
